A study of Homo sapiens with 12 samples.

Results

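The 46 genes described here act in the G2 phase and in mitosis: cyclins and the kinase CDK1, the mitotic kinases, the spindle checkpoint, kinesin motors, kinetochore proteins, and the machinery of anaphase and cytokinesis. They were chosen by name, from a list of mitosis and G2/M genes, among the 60664 genes of the count table, and the rule uses no measured value. All 46 were in the table, and all 46 passed the filter on low counts, which left 17544 genes. RNA came from MDA-MB-231, an established human triple-negative breast cancer line, labelled wild type in every group. Cells were plated at 500000 per flask and grown at pH 7.4 to 70 to 80% confluence. For the next 24 h the medium had a pH of 7.4, 6.9 or 6.4. Each medium had 4 repeats, which gave 12 libraries of poly(A)-selected RNA. The labels call the middle medium pH 6.9, whereas the treatment protocol gives pH 6.7. The label pH 6.9 is used throughout. The series concerns acidosis, the fall in extracellular pH found in many tumours, and the spread of cancer cells. The single cell line limits every value below to this model.

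Entry into mitosis is driven by CDK1 bound to B-type cyclins, which CDC25 phosphatases switch on and the kinase WEE1 restrains. The spindle checkpoint holds the anaphase-promoting complex in check until each kinetochore is attached, after which CDC20 directs the destruction of securin and cyclin B, separase opens cohesin, and the cell divides. Many of these genes share promoter elements, the cell cycle homology region (CHR) and the CCAAT box. The factor NF-Y binds the CCAAT box. Through the CHR the MuvB complex, with FOXM1 or B-MYB, raises their transcription late in the cycle. Their messages therefore peak in G2 and mitosis. In bulk RNA, a larger share of cells in G2 or mitosis and more message per cell cannot be told apart.

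Libraries held 21060767 to 50643233 counts, and the 46 genes took 0.599% to 0.732% of them at pH 7.4, 0.728% to 0.865% at pH 6.9 and 0.745% to 0.830% at pH 6.4. The number of genes with a count was 17841 in pH 7.4 repeat 1 and 21628 in pH 6.9 repeat 2, against 23113 to 27384 in the other 10 libraries. Markers of the line (VIM, CD44, EGFR, KRT18, KRT8) summed to 4014 to 5435 CPM (read counts scaled per 1000000 reads of the library, on TMM-scaled library sizes), while ESR1 and PGR stayed at or below 0.278 CPM. Of the other hormone receptor and luminal markers, ERBB2 read 66.8 to 97.6 CPM, GATA3 8.74 to 21.2 CPM and FOXA1 at most 0.0685 CPM. CD3E and MS4A1 of lymphocytes were at 0 in all 12 libraries, and PTPRC did not exceed 0.513 CPM. The monocyte marker CD14 read 2.94 to 6.12 CPM at pH 7.4, 2.61 to 4.56 at pH 6.9 and 1.37 to 2.83 at pH 6.4. Of 4 endothelial markers, CDH5 did not exceed 0.0731 CPM and PECAM1 read 4.90 to 12.4 CPM. Of 5 fibroblast markers, DCN reached at most 0.0343 CPM. Their summed level, nearly all PDGFRB and LUM, was 28.3 to 36.6 CPM at pH 7.4, 21.2 to 24.3 at pH 6.9 and 10.2 to 17.1 at pH 6.4, and the part of these markers in the results was not tested.

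To show what the promoters of these genes hold, RefSeq windows (GRCh38.p14) from 250 bases before to 50 bases after the start were searched on both strands. The CHR letters searched were TTTGAA and TTCGAA, the first of which reads TTCAAA on the other strand. The CCAAT box reads ATTGG on the other strand, and neighbouring matches can share bases. Windows existed for 39 of the 46 genes and not for UBE2C, BUB3, TPX2, BIRC5, AURKA, FOXM1 and TTK. A gene counts if any of its windows holds the letters. A CHR hexamer lay within 50 bases of the start in 26 of the 39, or 66.7%, against 6.24% of 27305 genes and 0 of 35 G1/S and replication genes. At least 1 CCAAT was present in 33 of the 39 (84.6%, against 39.7% of all genes), and at least 2 in 21 (53.8%, against 12.9%). A match describes letters in a window and says nothing of what binds there.

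Below are the 90 bases from 80 before to 10 after the RefSeq start of each gene that passed the test between pH 6.4 and pH 6.9 and has a window, 5′ to 3′. Capitals mark CHR hexamers and CCAAT boxes on either strand. They lie at chr9:89311115-89311204 (CKS2, plus strand), chr1:211675612-211675701 (NEK2, minus strand), chr2:110678054-110678143 (BUB1, minus strand), chr5:160421775-160421864 (PTTG1, plus strand), chr5:138179032-138179121 (KIF20A, plus strand), chr10:92593050-92593139 (KIF11, plus strand), chrX:70290024-70290113 (KIF4A, plus strand), chr2:168890421-168890510 (SPC25, minus strand), chr5:163460552-163460641 (HMMR, plus strand). Where RefSeq gives several starts, the one whose stretch holds the most matches is shown. This applies to PTTG1, whose other start lies downstream and leaves its CCAAT boxes outside the stretch. The start can differ from the first base of the gene model used for the counts.
CKS2: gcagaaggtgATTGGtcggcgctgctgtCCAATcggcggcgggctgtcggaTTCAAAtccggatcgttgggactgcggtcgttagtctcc
NEK2: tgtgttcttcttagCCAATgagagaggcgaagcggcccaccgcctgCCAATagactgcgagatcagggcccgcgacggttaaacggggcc
BUB1: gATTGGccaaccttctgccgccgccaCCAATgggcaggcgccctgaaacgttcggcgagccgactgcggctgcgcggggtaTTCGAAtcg
PTTG1: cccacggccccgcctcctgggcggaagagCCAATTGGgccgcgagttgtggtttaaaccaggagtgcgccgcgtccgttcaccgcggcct
KIF20A: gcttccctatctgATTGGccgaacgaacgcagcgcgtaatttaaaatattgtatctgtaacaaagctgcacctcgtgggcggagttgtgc
KIF11: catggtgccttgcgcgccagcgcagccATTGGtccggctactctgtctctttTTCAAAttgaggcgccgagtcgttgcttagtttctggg
KIF4A: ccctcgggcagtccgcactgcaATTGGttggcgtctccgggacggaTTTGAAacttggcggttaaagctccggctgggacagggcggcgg
SPC25: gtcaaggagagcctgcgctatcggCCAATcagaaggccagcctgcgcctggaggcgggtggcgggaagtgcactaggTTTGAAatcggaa
HMMR: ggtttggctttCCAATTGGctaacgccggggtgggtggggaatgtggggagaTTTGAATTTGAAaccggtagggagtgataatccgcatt
Both directions of change were found among promoters that hold these letters. The 5 genes that were higher at pH 6.4 than at pH 6.9 (CKS2, NEK2, BUB1, PTTG1 and KIF20A) come first, and the 4 that were lower (KIF11, KIF4A, SPC25 and HMMR) come last. All 9 stretches hold a CCAAT, but for PTTG1 only from the start shown. A CHR hexamer is in CKS2 and BUB1 and in each of the 4 that were lower, with a pair in HMMR, and these letters are not in the stretches of NEK2, PTTG1 and KIF20A. These sets are small, and their difference in CHR letters was not tested. The number of genes that fell between the acid media was close to the share over all genes, 8.2%. Over all genes with a window, a CHR hexamer lay near the start in 12 of the 21 that rose at pH 6.4 against pH 7.4 and in 14 of the other 18.

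Most of the 46 genes were higher at pH 6.4 than at pH 7.4. By edgeR's quasi-likelihood test at an adjusted p under 0.05, 27 rose, 1 (HMMR) fell and 18 did not pass, where 30.3% of all genes passed (15.6% higher, 14.7% lower). The median log2 change was 0.34, against -0.00083 for all genes tested, and 41 of the 46 values were above 0. In 24 genes the libraries of the 2 media did not overlap, which held for 27.9% of all genes. Among those that passed, 11 exceeded 1.5-fold and none reached 2-fold. With the repeat number as a block, a term that absorbs what libraries of the same number share, 33 rose and 3 fell (41.6% of all genes passed, 21.4% higher and 20.2% lower). The repeats are not stated to be separate cultures, so the p-values measure the spread between these samples, which may be technical.

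**Figure D1:**
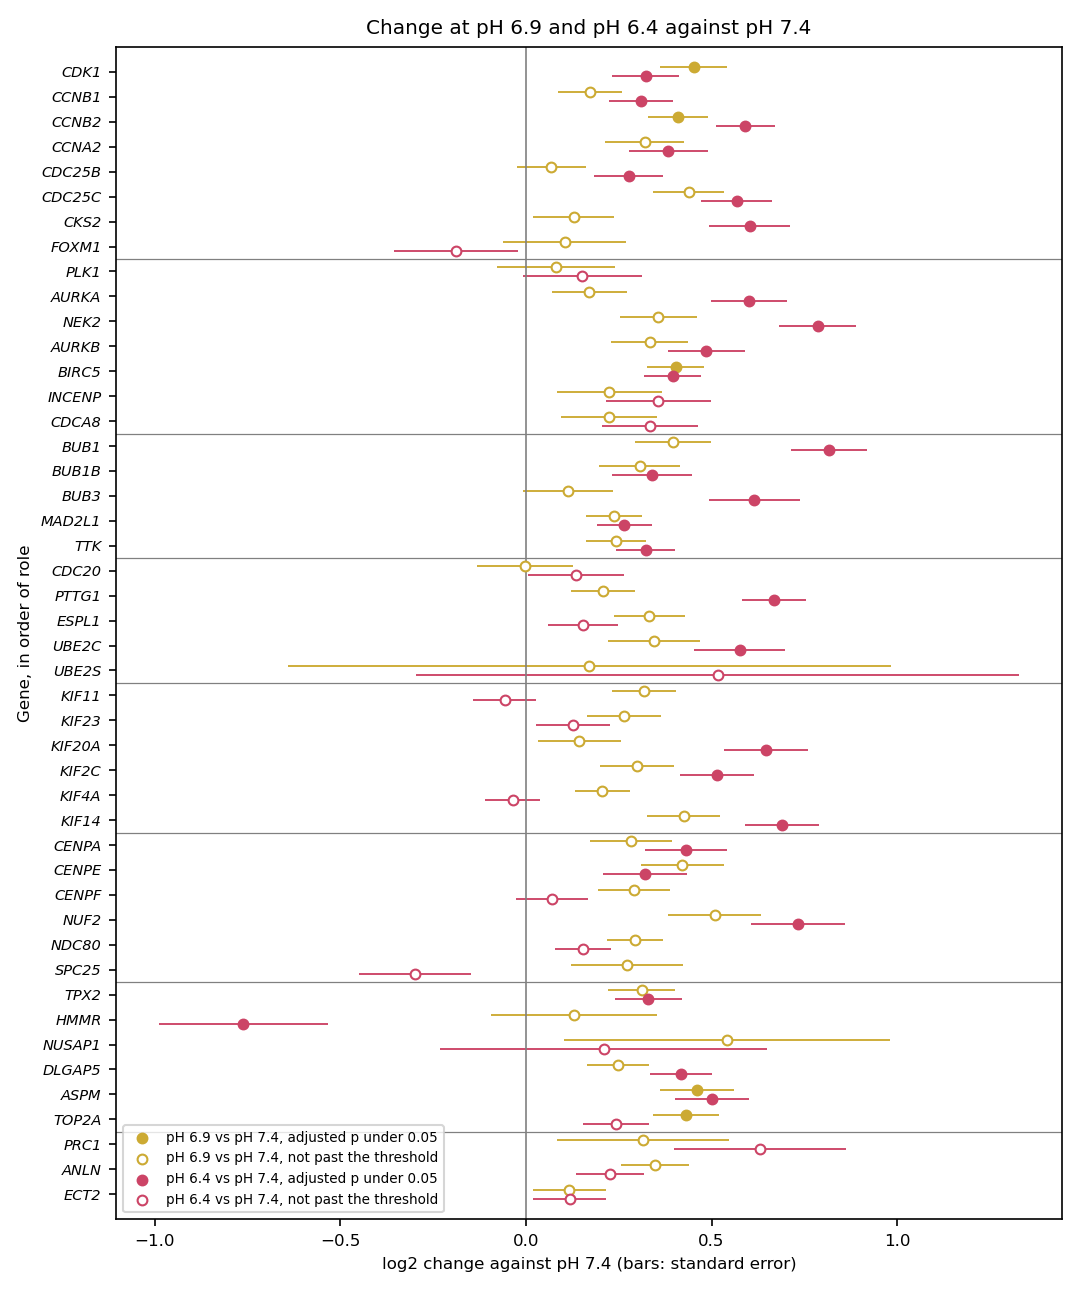
The log2 change of each of the 46 genes at pH 6.9 (yellow) and pH 6.4 (red) against pH 7.4, with bars of 1 standard error and filled points for an edgeR adjusted p under 0.05. Most red points lie right of 0, from HMMR at -0.76 to BUB1 at 0.82, and UBE2S has the widest bars.

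In what follows each change is a log2 fold change with its standard error (SE), and each p is edgeR's, adjusted over all genes tested. Of the 8 genes of cyclin and CDK1 control, 7 rose at pH 6.4, with a median log2 change of 0.35 over all 8. CCNB2 (cyclin B2, ENSG00000157456, chr15:59105078-59125045) read 54.4, 63.6, 59.8 and 67.3 CPM in repeats 1 to 4 at pH 7.4, 76.1, 83.8, 79.7 and 86.0 at pH 6.9 and 94.1, 91.3, 87.4 and 96.3 at pH 6.4. All 4 libraries at pH 6.4 lay above all 4 at pH 6.9, which lay above all 4 at pH 7.4. The rise from pH 7.4 to pH 6.4 was 0.59 log2 units (SE 0.08, adjusted p = 0.00016). CDC25C (ENSG00000158402, chr5:138285265-138338355), a phosphatase that activates CDK1, read 20.0, 21.8, 19.2 and 20.6 CPM at pH 7.4, 26.5, 30.4, 26.3 and 27.5 at pH 6.9 and 32.8, 32.1, 29.3 and 26.7 at pH 6.4. Both acid media lay above pH 7.4 without overlap, by 0.57 log2 units (SE 0.10, adjusted p = 0.00069) at pH 6.4. CKS2, a small CDK-binding subunit, had the largest value of the group, 0.60 log2 units (SE 0.11, adjusted p = 0.0011). Cyclin A2 (CCNA2) rose by 0.38 log2 units, CDK1 itself by 0.32 log2 units, CCNB1 (cyclin B1) by 0.31 log2 units and CDC25B by 0.28 log2 units. The call for CCNB1 was lost without pH 6.4 repeat 1, at an adjusted p of 0.053. The call for CDC25B was lost when any 1 of pH 6.4 repeats 1, 2 and 4 or pH 7.4 repeats 1, 2 and 3 was left out, with adjusted p up to 0.099. FOXM1, a transcription factor of G2/M genes, had a change of -0.19 log2 units (SE 0.17, adjusted p = 0.43); with the block it was lower at -0.20 log2 units (SE 0.07, adjusted p = 0.046).

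Among the 7 mitotic kinases and chromosomal passenger genes, 4 rose. NEK2 (ENSG00000117650, chr1:211658657-211675630), a centrosome kinase, read 36.9, 43.4, 44.7 and 50.5 CPM in repeats 1 to 4 at pH 7.4, 52.2, 55.7, 57.5 and 59.5 at pH 6.9 and 74.1, 82.1, 65.2 and 81.4 at pH 6.4. The 3 media followed each other without overlap. Its change at pH 6.4 was 0.79 log2 units (SE 0.10, adjusted p = 0.00012). AURKA (Aurora A, ENSG00000087586, chr20:56369389-56392337), the kinase of spindle poles, read 136, 142, 136 and 162 CPM at pH 7.4, 164, 154, 156 and 175 at pH 6.9 and 216, 247, 175 and 236 at pH 6.4. The pH 6.4 libraries cleared every pH 7.4 library, but repeat 3 fell among those at pH 6.9. AURKA rose by 0.60 log2 units (SE 0.10, adjusted p = 0.00069). In the passenger complex, which corrects faulty attachments, the kinase AURKB rose by 0.49 log2 units and the subunit BIRC5 (survivin) by 0.40 log2 units. INCENP and CDCA8, its scaffold and borealin, had changes of 0.36 log2 units (SE 0.14, adjusted p = 0.071) and 0.33 log2 units (SE 0.13, adjusted p = 0.064), and with the block both were higher, by 0.36 log2 units (SE 0.08, adjusted p = 0.0037) and 0.34 log2 units (SE 0.06, adjusted p = 0.0013). PLK1, which acts from mitotic entry to cytokinesis, had a change of 0.15 log2 units (SE 0.16, adjusted p = 0.52).

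All 5 spindle checkpoint genes rose at pH 6.4. BUB1 (ENSG00000169679, chr2:110637698-110678114), the kinase that brings checkpoint proteins to kinetochores, read 154, 166, 162 and 179 CPM in repeats 1 to 4 at pH 7.4, 209.6, 237, 192 and 229 at pH 6.9 and 288, 327, 236 and 311 at pH 6.4. No pH 7.4 library reached the lowest at pH 6.9 or pH 6.4. The change at pH 6.4, 0.82 log2 units (SE 0.10, adjusted p = 8.8e-05), was the largest of the 46 genes, from 165 ± 10.4 to 290.4 ± 39.7 CPM (SD, n = 4). BUB3 (ENSG00000154473, chr10:123154277-123170467), the partner of BUB1 and BUBR1, read 267, 277, 255 and 273 CPM at pH 7.4, 277, 319.8, 270.4 and 292 at pH 6.9 and 381, 499, 304 and 457 at pH 6.4. The pH 6.4 libraries were the most scattered, with repeat 3 within the range of pH 6.9, and the change was 0.62 log2 units (SE 0.12, adjusted p = 0.0019). Smaller rises were those of BUB1B (BUBR1, 0.34), TTK (MPS1, 0.32) and MAD2L1 (MAD2, 0.27). The BUB1B call was lost when any 1 of pH 6.4 repeats 2 and 4 or pH 7.4 repeats 1 and 2 was left out, with adjusted p up to 0.076.

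Of the 5 genes of anaphase onset, 2 rose. PTTG1 (ENSG00000164611, chr5:160421822-160428744) encodes securin, the inhibitor of separase. It read 144, 121, 126 and 146 CPM in repeats 1 to 4 at pH 7.4, 143, 157, 157 and 163 at pH 6.9 and 219, 221, 189 and 226 at pH 6.4. Each pH 6.4 library was above each of the other 8, and the change from pH 7.4 was 0.67 log2 units (SE 0.09, adjusted p = 0.0001). UBE2C (ENSG00000175063, chr20:45812576-45816957), which starts ubiquitin chains for the anaphase-promoting complex, read 106, 113, 125 and 142 CPM at pH 7.4, 130.5, 143, 167 and 176 at pH 6.9 and 148, 193, 177 and 205 at pH 6.4. It rose by 0.58 log2 units (SE 0.12, adjusted p = 0.0031), and its pH 6.4 libraries overlapped those at pH 6.9. Separase (ESPL1) had a change of 0.15 log2 units (SE 0.09, adjusted p = 0.24), and CDC20, the activator of the complex, 0.13 log2 units (SE 0.13, adjusted p = 0.47). Securin passed the test and its partner separase did not; the difference between the genes was not tested.

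**Figure D2:**
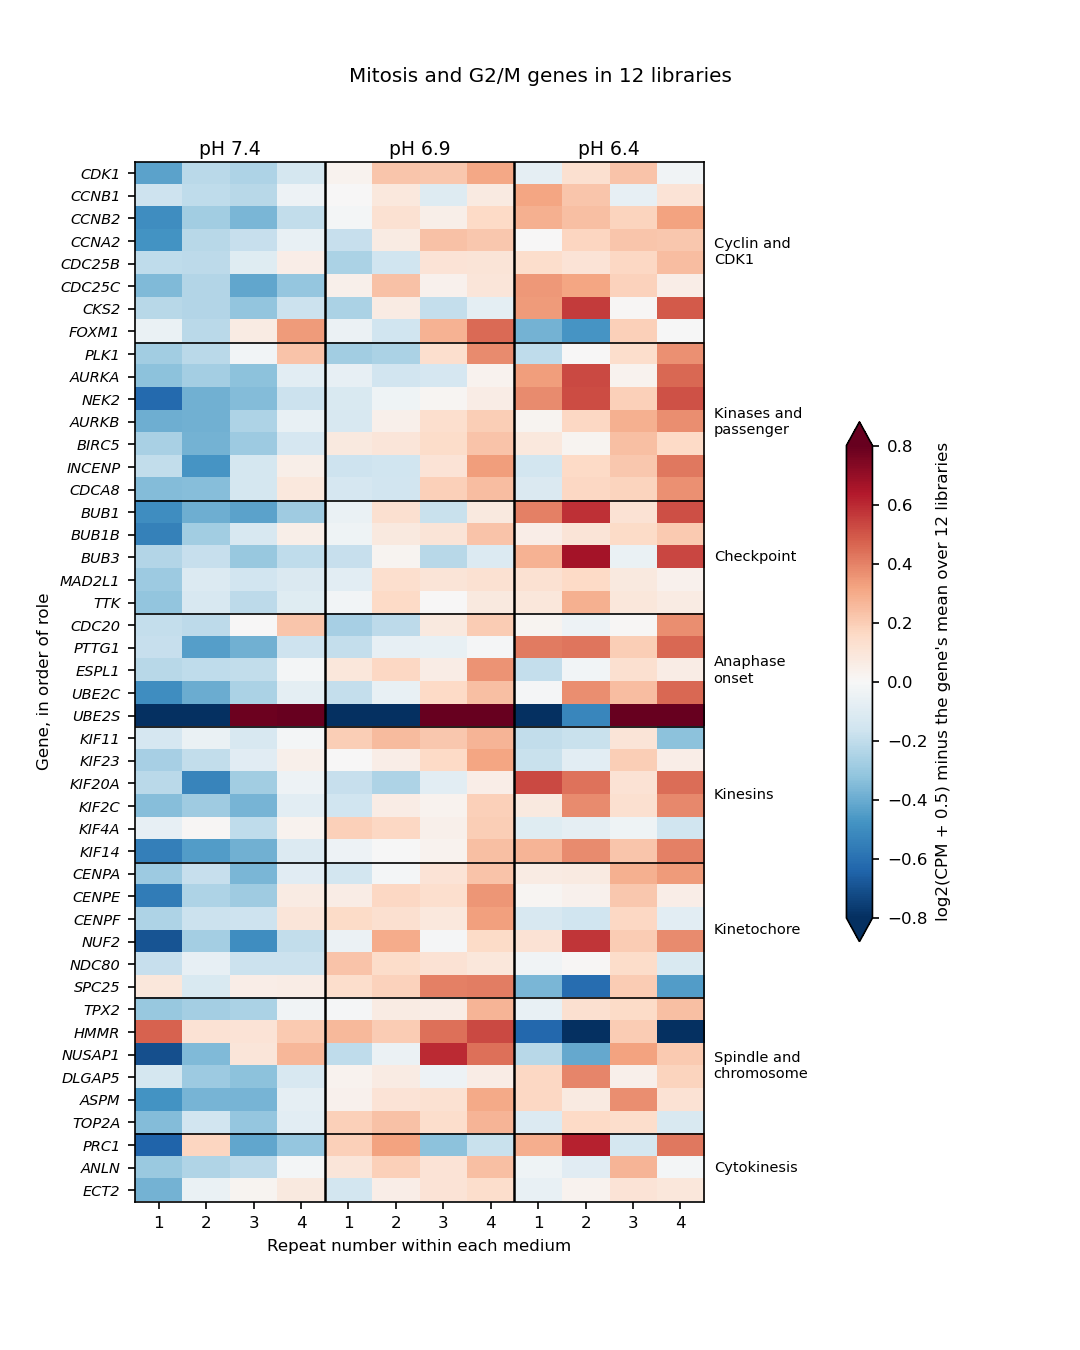
Each cell shows log2(CPM + 0.5) minus the gene's mean over the 12 libraries (blue low, red high), for 46 genes in order of role and for repeats 1 to 4 of each medium. The colour scale ends at 0.8 in either direction, which UBE2S and HMMR exceed, and for most genes pH 7.4 is the bluest block.

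UBE2S, which extends the ubiquitin chains, varied far more between repeats than between media. It read 21.9, 22.7, 105 and 127 CPM in repeats 1 to 4 at pH 7.4, 22.7, 28.7, 122 and 138 at pH 6.9 and 32.1, 42.1, 131 and 190.03 at pH 6.4. Repeats 3 and 4 exceeded repeats 1 and 2 by 5.20-fold at pH 7.4, 5.06-fold at pH 6.9 and 4.32-fold at pH 6.4. Within each repeat number pH 6.4 was higher than pH 6.9, and pH 6.9 higher than pH 7.4. Without the block the change at pH 6.4 was 0.52 log2 units (SE 0.81, adjusted p = 0.68), and with the block 0.59 log2 units (SE 0.08, adjusted p = 0.00026). The processed pseudogene UBE2SP1 had 118 to 326 counts per library, against 755 to 5696 for UBE2S, and reads that fit both may have been split between them.

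**Figure D3:**
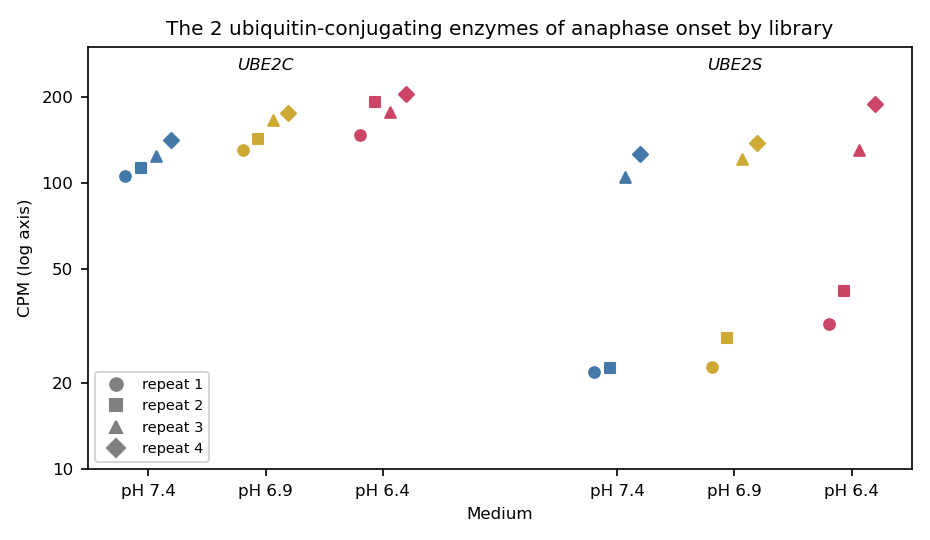
CPM on a log axis for UBE2C and UBE2S in every library, with the medium by colour and position and the repeat by symbol. Circles and squares of UBE2S (repeats 1 and 2) lie between 21.9 and 42.1 CPM and triangles and diamonds (repeats 3 and 4) between 105 and 190.03. For UBE2C, repeats 3 and 4 lie above repeats 1 and 2 at pH 7.4 and pH 6.9, by less, and the pairs overlap at pH 6.4.

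The 6 kinesins divided evenly, with 3 that rose and 3 that did not pass. KIF14 (ENSG00000118193, chr1:200551497-200620734), a motor of the midzone and midbody, read 71.8, 77.0, 80.4 and 97.4 CPM in repeats 1 to 4 at pH 7.4, 102, 105, 107 and 124 at pH 6.9 and 127, 137, 123 and 139.5 at pH 6.4. Both acid media cleared pH 7.4, and the change at pH 6.4 was 0.69 log2 units (SE 0.10, adjusted p = 0.00022). KIF20A (MKLP2, ENSG00000112984, chr5:138178719-138187715), which carries the passenger complex to the midzone, read 129, 104, 124 and 146 CPM at pH 7.4, 132, 127, 142 and 156 at pH 6.9 and 217, 203, 163 and 205 at pH 6.4. Only pH 6.4 stood clear of the others, and KIF20A rose by 0.65 log2 units (SE 0.11, adjusted p = 0.00082). KIF2C, a microtubule depolymerase at centromeres, rose by 0.51 log2 units. KIF11 (Eg5), which pushes spindle poles apart, had a change of -0.06 log2 units (SE 0.09, adjusted p = 0.66), the chromokinesin KIF4A -0.04 log2 units (SE 0.07, adjusted p = 0.76) and KIF23 (MKLP1) 0.13 log2 units (SE 0.10, adjusted p = 0.36).

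Of 6 centromere and kinetochore genes, 3 rose and 3 did not pass. NUF2 (ENSG00000143228, chr1:163266576-163355764), a subunit of the NDC80 complex that grips microtubules, read 52.3, 70.3, 59.9 and 73.8 CPM in repeats 1 to 4 at pH 7.4, 82.0, 104, 84.2 and 94.2 at pH 6.9 and 91.8, 126, 97.9 and 110.3 at pH 6.4. All 8 acid libraries were above the 4 at pH 7.4, and the change at pH 6.4 was 0.73 log2 units (SE 0.13, adjusted p = 0.00075). CENPA (ENSG00000115163, chr2:26764289-26801067), the histone H3 variant of centromeres, read 22.9, 24.7, 21.7 and 26.4 CPM at pH 7.4, 25.4, 27.8, 30.4 and 33.0 at pH 6.9 and 29.4, 29.6, 34.4 and 35.8 at pH 6.4. The change was 0.43 log2 units (SE 0.11, adjusted p = 0.0087). CENPE, a kinetochore motor, rose by 0.32 log2 units; that call was lost in 10 of 12 fits that left out 1 library, all but those without pH 6.9 repeat 4 or pH 7.4 repeat 4, with adjusted p up to 0.11. Of the other subunits of the NDC80 complex, NDC80 had a change of 0.15 log2 units (SE 0.08, adjusted p = 0.14) and SPC25 -0.30 log2 units (SE 0.15, adjusted p = 0.15). With the block SPC25 was lower, at -0.33 log2 units (SE 0.12, adjusted p = 0.045). CENPF, a large kinetochore and matrix protein, had a change of 0.07 log2 units (SE 0.10, adjusted p = 0.63).

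Spindle and chromosome structure held the only gene that fell at pH 6.4 against pH 7.4 in the edgeR fit without the block. HMMR (ENSG00000072571, chr5:163460203-163491945), the hyaluronan-mediated motility receptor, a spindle protein that works with TPX2, read 19.1, 14.8, 14.8 and 15.8 CPM in repeats 1 to 4 at pH 7.4, 16.4, 15.8, 18.7 and 19.9 at pH 6.9 and 8.63, 6.60, 15.8 and 6.99 at pH 6.4. Repeats 1, 2 and 4 at pH 6.4 were below all other libraries, whereas repeat 3 was within the range of pH 7.4. HMMR fell by 0.76 log2 units (SE 0.23, adjusted p = 0.02). The call was lost without pH 6.4 repeat 1, 2 or 4 or pH 7.4 repeat 1 (adjusted p 0.052 to 0.067, log2 change -0.71 to -0.62). The antisense gene HMMR-AS1 covers 2.9% of HMMR exons, and whether the counting used strand is not given.

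In the same group ASPM (ENSG00000066279, chr1:197084128-197146694), a spindle pole protein, read 201, 216, 216 and 266 CPM at pH 7.4, 287, 302, 304 and 345 at pH 6.9 and 314, 294, 362 and 303 at pH 6.4. Both acid media were above pH 7.4 and overlapped each other; the change at pH 6.4 was 0.50 log2 units (SE 0.10, adjusted p = 0.0019). DLGAP5 (HURP, ENSG00000126787, chr14:55148112-55191678), which stabilizes kinetochore fibres, read 167, 151, 147 and 168 CPM at pH 7.4, 188, 193, 179 and 192 at pH 6.9 and 207, 242, 189 and 208 at pH 6.4. The 3 media ranked in order of acidity by mean, and DLGAP5 rose by 0.42 log2 units (SE 0.08, adjusted p = 0.0019). TPX2, which activates Aurora A, rose by 0.33 log2 units. TOP2A (topoisomerase II alpha) had a change of 0.24 log2 units (SE 0.09, adjusted p = 0.053), and with the block a rise of 0.24 log2 units (SE 0.07, adjusted p = 0.016). NUSAP1 had a change of 0.21 log2 units (SE 0.44, adjusted p = 0.77), at 0.348 to 1.59 CPM over the 12 libraries. In GENCODE 29, 62.2% of NUSAP1 exons lie under another gene on the same strand, so its counts may miss shared reads.

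None of the 3 cytokinesis genes passed at pH 6.4 in the edgeR fit without the block, although 2 had an unadjusted p under 0.05 and DESeq2 called those 2. PRC1 (ENSG00000198901, chr15:90966038-90995629), the bundler of midzone microtubules, read 3.51, 6.55, 4.19 and 4.55 CPM in repeats 1 to 4 at pH 7.4, 6.63, 7.30, 4.47 and 5.03 at pH 6.9 and 7.14, 9.06, 5.16 and 7.88 at pH 6.4. Its libraries overlapped between media, with 0.63 log2 units (SE 0.23, adjusted p = 0.052) at pH 6.4 and 0.64 log2 units (SE 0.16, adjusted p = 0.0077) with the block. As for NUSAP1, 57.6% of PRC1 exons lie under another gene on the same strand. That gene, AC068831.7, read 5.31 to 10.8 CPM at pH 7.4, 8.995 to 9.81 at pH 6.9 and 12.3 to 15.4 at pH 6.4. These values were scaled by total count alone, and the part of shared reads in the PRC1 change was not tested. ANLN (anillin, ENSG00000011426, chr7:36389806-36453791), an organizer of the contractile ring, read 497, 516, 527 and 604 CPM at pH 7.4, 653, 697, 658 and 722 at pH 6.9 and 595, 572, 736 and 604 at pH 6.4. Levels at pH 6.9 were above all at pH 7.4, and pH 6.4 repeat 3 was the highest of all 12 libraries. The change at pH 6.4 was 0.23 log2 units (SE 0.09, adjusted p = 0.076), and 0.23 log2 units (SE 0.07, adjusted p = 0.027) with the block. ECT2, which activates RhoA at the cell centre, had a change of 0.12 log2 units (SE 0.10, adjusted p = 0.4).

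Most of the 46 genes also had higher levels at pH 6.9 than at pH 7.4. Of 46 log2 changes 45 were above 0, with a median of 0.29 against 0.0093 for all genes. In the edgeR fit 5 rose and 0 fell, where 0.724% of all genes passed (0.313% higher, 0.41% lower). Those 5 were CDK1 (0.45, SE 0.09, adjusted p = 0.037), CCNB2 (0.41, SE 0.08, adjusted p = 0.033), BIRC5 (0.40, SE 0.08, adjusted p = 0.028), ASPM (0.46, SE 0.10, adjusted p = 0.049) and TOP2A (0.43, SE 0.09, adjusted p = 0.041). Unadjusted p was under 0.05 for 29 of the 46, and DESeq2 called 16 higher and 0 lower. With the block 26 rose and 0 fell, where 5.4% of all genes passed (2.96% higher, 2.44% lower). Libraries did not overlap for 20 genes, against 10.1% of all genes.

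The call of so few depended on single libraries. It was 0 when any 1 of pH 6.9 repeats 2, 3 and 4 or pH 7.4 repeats 1, 2 and 3 was left out. It was 1 without pH 6.9 repeat 1, 2 without pH 6.4 repeat 1 and 11 without pH 6.4 repeat 3, where 0.86% of all genes rose. Without the pair of libraries with the fewest detected genes it was 0, and 7 with the block, where 0.529% of all genes rose. Compared within each repeat number, 40 of the 46 genes were higher at pH 6.9 than at pH 7.4 in all 4 repeats, against 18.4% of all genes, and none was lower in all 4, against 16.1%. The same count for pH 6.4 against pH 7.4 was 37 of 46, against 26% of all genes.

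By role, the block at pH 6.9 called 4 of 8 cyclin and CDK1 control genes, 3 of 7 kinases and passenger genes, 4 of 5 checkpoint genes and 2 of 5 anaphase genes. It called 4 of 6 kinesins, 4 of 6 kinetochore genes, 4 of 6 spindle genes and 1 of 3 cytokinesis genes. The largest changes called with the block outside the 5 named were NUF2 (0.51, SE 0.06, adjusted p = 0.00086), CDC25C (0.44, SE 0.08, adjusted p = 0.0087), KIF14 (0.43, SE 0.06, adjusted p = 0.0029) and CENPE (0.43, SE 0.08, adjusted p = 0.013). CDC25B (0.07), CDC20 (-0.0012), PLK1 (0.08), FOXM1 (0.10) and BUB3 (0.11) were among the log2 changes nearest 0 and passed in neither fit.

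Between the acid media 31 of the 46 log2 changes were above 0 and 15 below. From pH 6.9 to pH 6.4, 7 rose and 4 fell in the edgeR fit, where 17% of all genes passed (8.83% higher, 8.2% lower), and the median log2 change was 0.095 against -0.014 for all genes. The 7 that rose were BUB3 (0.50, SE 0.12, adjusted p = 0.014), KIF20A (0.50, SE 0.11, adjusted p = 0.01), CKS2 (0.47, SE 0.11, adjusted p = 0.011), PTTG1 (0.46, SE 0.09, adjusted p = 0.005), AURKA (0.43, SE 0.10, adjusted p = 0.013), NEK2 (0.43, SE 0.10, adjusted p = 0.013) and BUB1 (0.42, SE 0.10, adjusted p = 0.014). They include kinases, checkpoint genes, securin and a midzone motor. The 4 that fell were HMMR (-0.89, SE 0.23, adjusted p = 0.017), SPC25 (-0.57, SE 0.15, adjusted p = 0.021), KIF11 (-0.38, SE 0.09, adjusted p = 0.011) and KIF4A (-0.24, SE 0.07, adjusted p = 0.037). With the block 15 rose and 6 fell (31.1% of all genes passed, 16.1% higher and 15% lower). In both fits the number that fell was close to the share over all genes.

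Among the genes the block added, CDC25B (0.21, SE 0.06, adjusted p = 0.017), UBE2S (0.40, SE 0.08, adjusted p = 0.0049), KIF14 (0.27, SE 0.06, adjusted p = 0.007), UBE2C (0.23, SE 0.06, adjusted p = 0.013), NUF2 (0.22, SE 0.06, adjusted p = 0.016), KIF2C (0.21, SE 0.05, adjusted p = 0.012), CCNB2 (0.18, SE 0.06, adjusted p = 0.033) and AURKB (0.15, SE 0.05, adjusted p = 0.049) were higher at pH 6.4. FOXM1 (-0.29, SE 0.07, adjusted p = 0.011) and CENPF (-0.22, SE 0.08, adjusted p = 0.044) were lower. Among the kinesins, KIF20A, KIF2C and KIF14 were higher and KIF11 and KIF4A lower in the fit with the block. In the NDC80 complex NUF2 was higher and SPC25 lower. The differences between these genes were not tested. In this contrast libraries failed to overlap in 6 genes, against 20.4% of all genes.

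**Figure D4:**
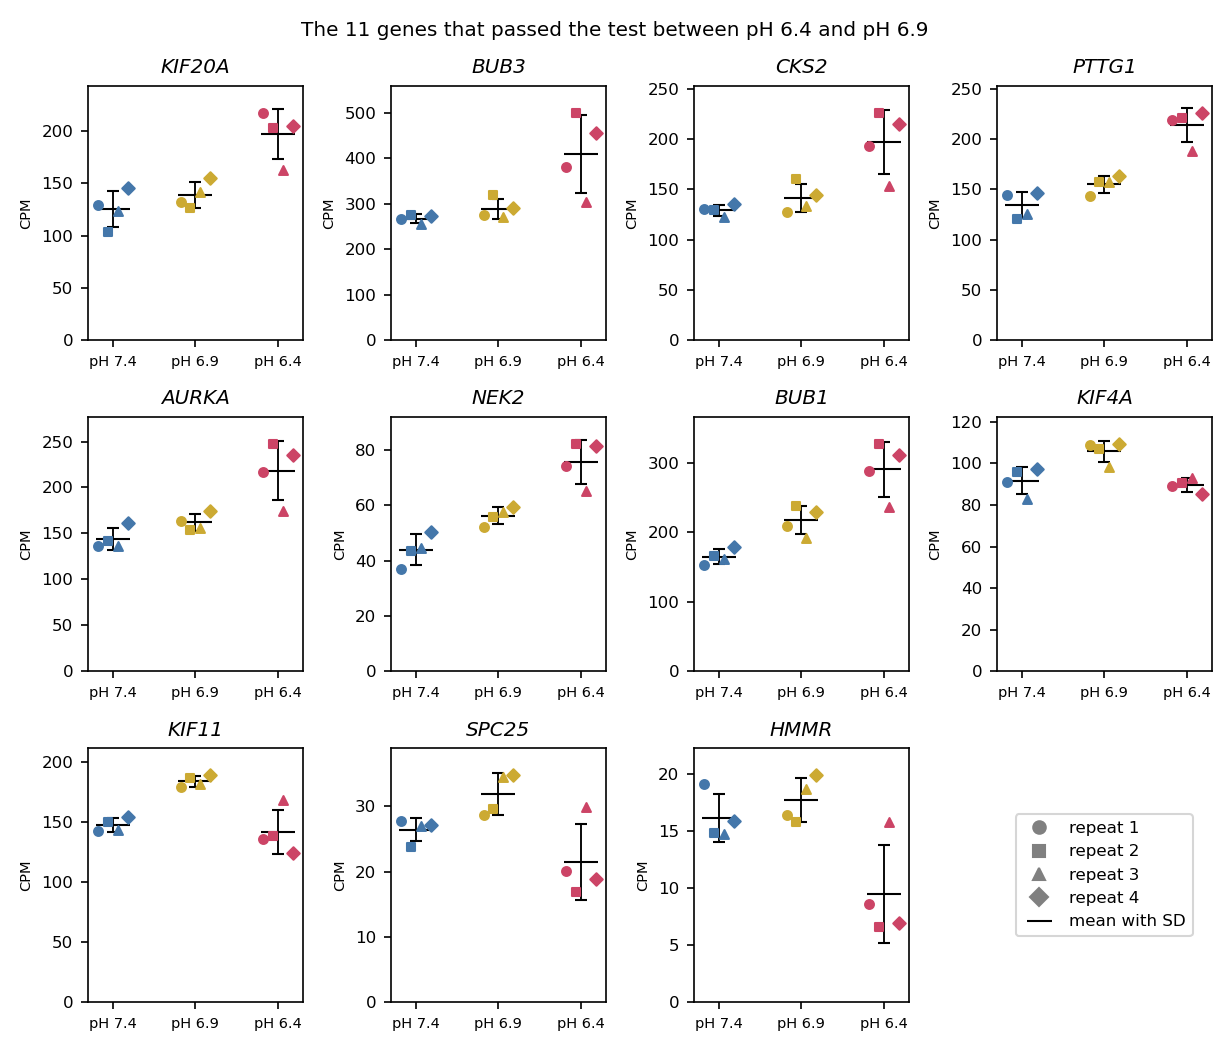
CPM in every library (symbols for repeats) with the mean and SD of 4 repeats, for the 11 genes that passed the edgeR test between pH 6.4 and pH 6.9, in order of their log2 change. In each panel the pH 6.4 triangle, repeat 3, is the pH 6.4 library closest to the pH 6.9 mean.

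Among the pH 6.4 libraries, repeat 3 stood closest to pH 6.9. In all 11 genes, pH 6.4 repeat 3 was the pH 6.4 library nearest the mean at pH 6.9. SPC25 read 27.8, 23.8, 26.9 and 27.1 CPM in repeats 1 to 4 at pH 7.4, 28.7, 29.7, 34.5 and 34.7 at pH 6.9 and 20.1, 16.8, 29.96 and 18.9 at pH 6.4, so that repeat 3 alone lay within the range of pH 6.9, and the other 3 lay below all 8 libraries of the other media. KIF11 read 143, 151, 143 and 155 CPM at pH 7.4, 179, 187, 182 and 189 at pH 6.9 and 136, 139, 168 and 125 at pH 6.4, with repeat 3 between the groups. KIF4A read 91.0, 95.7, 82.7 and 97.2 CPM at pH 7.4, 109, 107, 98.2 and 109 at pH 6.9 and 89.2, 90.6, 92.9 and 85.1 at pH 6.4; here all pH 6.4 values were below all at pH 6.9. CKS2 read 131, 129.5, 122 and 136 CPM at pH 7.4, 128, 159.98, 134 and 144 at pH 6.9 and 193, 226, 153 and 215 at pH 6.4, with repeat 3 inside the pH 6.9 range.

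Without pH 6.4 repeat 3, 8 genes rose and 5 fell from pH 6.9 to pH 6.4, and with the block as well 17 rose and 12 fell. The shares over all genes moved too, to 13.8% higher and 13.8% lower, and to 19.6% and 18.7% with the block. Leaving out pH 6.4 repeat 4 gave 3 and 1 (3.81% and 3.04% of all genes). Leaving out pH 6.4 repeat 2 gave 4 and 1 (3.68% and 2.86% of all genes). Of the 46 genes, 2 fell without pH 6.4 repeat 1 and 2 without pH 6.9 repeat 4 (5.43% and 5.13% of all genes). PTTG1, KIF20A, CKS2 and KIF11 kept their calls in every fit that left out 1 library. AURKA lost its call without pH 6.4 repeat 4, and BUB3, HMMR, NEK2 and BUB1 lost theirs without pH 6.4 repeat 2 or 4. NEK2 also lost it without pH 6.9 repeat 1, and BUB1 without pH 6.9 repeat 3. KIF4A and SPC25 lost their calls without pH 6.4 repeat 1, 2 or 4 or pH 6.9 repeat 4, KIF4A also without pH 6.9 repeat 1 or 2, and SPC25 also without pH 6.9 repeat 3. The adjusted p in those fits reached 0.12 for KIF4A and 0.076 for SPC25.

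The order of the 3 group means sums up these patterns. In 30 of the 46 genes the mean rose from pH 7.4 through pH 6.9 to pH 6.4, an order found in 27.8% of all genes. In 10 it was highest at pH 6.9 and lowest at pH 7.4 (8.95% of all genes), in 5 highest at pH 6.9 and lowest at pH 6.4 (15% of all genes), and in CDC20 lowest at pH 6.9. No gene had its highest mean at pH 7.4. The 15 with the highest mean at pH 6.9 were CDK1, FOXM1, BIRC5, ESPL1, KIF11, KIF23, KIF4A, CENPE, CENPF, NDC80, SPC25, HMMR, NUSAP1, TOP2A and ANLN. When libraries were scaled by total count alone, the first order held 22 genes instead of 30 and the second 17 instead of 10. CCNA2, PLK1, BUB1B, MAD2L1, TTK, TPX2, ASPM and ECT2 then had their highest mean at pH 6.9, and CENPF its lowest at pH 6.4.

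Per kilobase of exon, CKS2 had the highest level at pH 7.4, 211 CPM per kb, followed by TOP2A at 95.8, UBE2C at 94.4 and TPX2 at 93.4. HMMR, at 4.10 CPM per kb, and separase (ESPL1), at 5.51, were the lowest of the 44 genes whose exons are mostly free of another gene. The median of those 44 was 27.5 CPM per kb. The 6 genes with the largest log2 changes between pH 6.4 and pH 7.4, in either direction, had levels from 4.10 CPM per kb (HMMR) through 11.2 (KIF14), 14.2 (NEK2), 19.1 (NUF2) and 27.4 (BUB1) to 66.7 (PTTG1).

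Repeats 3 and 4 differed from repeats 1 and 2 in many of these genes, in every medium. Both were above both of the others in 20 of the 46 genes at pH 7.4, 23 at pH 6.9 and 19 at pH 6.4, and below in 0, 2 and 3. This count was not made over all genes, so it does not set the 46 genes apart. Over 9781 genes, deviations from the group means correlated at -0.726 to -0.157 between libraries of different media across these pairs of repeats. Apart from UBE2S, the ratio of the means of the 2 pairs was 1.28 at pH 7.4, 1.44 at pH 6.9 and 1.28 at pH 6.4 for PLK1. For FOXM1 it was 1.27, 1.39 and 1.44. The median log2 change of the 46 genes at pH 6.4 against pH 7.4 was 0.40 within repeats 1 and 2 alone and 0.33 within repeats 3 and 4 alone. For pH 6.9 against pH 7.4 it was 0.30 and 0.28, and for pH 6.4 against pH 6.9 0.15 and 0.053.

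Other genes of the same machinery were counted in the same fits. Among 112 further mitotic genes, 28 rose and 17 fell at pH 6.4 against pH 7.4 (37 and 28 with the block), with a median log2 change of 0.071. From pH 6.9 to pH 6.4, 5 rose and 28 fell (17 and 46 with the block), with a median of -0.11. At pH 6.9 against pH 7.4, 4 rose and 0 fell, 38 had an unadjusted p under 0.05, and the block called 29 and 1. Over all genes, 15.6% rose and 14.7% fell at pH 6.4 against pH 7.4 (21.4% and 20.2% with the block). From pH 6.9 to pH 6.4 the shares were 8.83% and 8.2% (16.1% and 15%). At pH 6.9 against pH 7.4 they were 0.313% and 0.41% (2.96% and 2.44%), and 11.9% had an unadjusted p under 0.05. These shares also stand beside the counts of each list below.

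Of 9 other CDK1 regulators, 2 rose and 1 fell at pH 6.4 against pH 7.4 (4 and 1 with the block). Of all genes, 15.6% rose and 14.7% fell (21.4% and 20.2% with the block). WEE1, the kinase that restrains CDK1, rose by 0.44 log2 units (SE 0.10, adjusted p = 0.0032), and CCNF (cyclin F) by 0.49 log2 units (SE 0.14, adjusted p = 0.014). CDC25A, a phosphatase that also acts at the G1/S step, fell by 0.42 log2 units (SE 0.12, adjusted p = 0.015). WEE1 and CDC25C, which oppose each other on CDK1, were thus both higher.

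The anaphase-promoting complex and its regulators had 4 of 16 genes higher and 2 lower at pH 6.4 against pH 7.4 (6 and 3 with the block). For this list and the kinesins below, the shares over all genes were 15.6% higher and 14.7% lower. With the block they were 21.4% and 20.2%. The number of the 16 genes that fell was close to these shares. The scaffold subunit ANAPC1 rose by 0.78 log2 units (SE 0.11, adjusted p = 0.0002). The small subunit ANAPC16 fell by 0.64 log2 units (SE 0.12, adjusted p = 0.0016), and ANAPC15 fell by 0.53 log2 units (SE 0.14, adjusted p = 0.0091). The inhibitor FBXO5 (EMI1) was lower at pH 6.4 than at pH 6.9, by -0.45 log2 units (SE 0.12, adjusted p = 0.019). Of 7 other mitotic kinesins, none fell and 5 rose with the block at pH 6.4 against pH 7.4. Without it 3 rose: KIF22 (0.49, SE 0.09, adjusted p = 0.0012), KIF20B (0.46, SE 0.11, adjusted p = 0.0052) and KIFC1 (0.35, SE 0.09, adjusted p = 0.0089). KIF15, which works beside KIF11 in the spindle, was lower at pH 6.4 than at pH 6.9, at -0.39 log2 units (SE 0.11, adjusted p = 0.023).

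Of 25 other kinetochore genes, 4 rose and 5 fell at pH 6.4 against pH 7.4 (5 and 8 with the block), and 1 rose and 10 fell from pH 6.9 to pH 6.4 (2 and 14 with the block). Of all genes, 15.6% rose and 14.7% fell in the first comparison (21.4% and 20.2% with the block). In the second, 8.83% rose and 8.2% fell (16.1% and 15% with the block). CENPH rose by 0.84 log2 units (SE 0.22, adjusted p = 0.011) and CENPM fell by 0.66 log2 units (SE 0.17, adjusted p = 0.009). SKA3 had a change of -0.65 log2 units (SE 0.15, adjusted p = 0.012) from pH 6.9 to pH 6.4. Of 10 further checkpoint and cohesion protection genes, 1 rose and 4 fell with the block at pH 6.4 against pH 7.4. Without it 1 rose and 2 fell: SGO2 (0.34, SE 0.09, adjusted p = 0.012), ZWINT (-0.57, SE 0.17, adjusted p = 0.019) and ZW10 (-0.35, SE 0.07, adjusted p = 0.0029). ZWINT links the kinetochore to the ZW10 complex, and had a change of -0.88 log2 units (SE 0.17, adjusted p = 0.0056) from pH 6.9 to pH 6.4. Spindle and cytokinesis proteins outside the 46 numbered 14, of which 8 rose and 1 fell at pH 6.4 against pH 7.4 (9 and 1 with the block). Citron kinase (CIT), which acts at the midbody, rose by 0.92 log2 units (SE 0.11, adjusted p = 6.3e-05) and the microtubule polymerase CKAP5 by 0.65 log2 units (SE 0.10, adjusted p = 0.00025).

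Genes of the G1/S step and of replication went the other way at pH 6.4. Of 40 such genes, 24 fell at pH 6.4 against pH 7.4 and 33 fell from pH 6.9 to pH 6.4 (28 and 37 with the block), with medians of -0.48 and -0.68. Of all genes, 14.7% and 8.2% fell in these comparisons (20.2% and 15% with the block). At pH 6.9 against pH 7.4 the median of the 40 genes was 0.18. By library, the median deviation from the mean of each gene over the 12 libraries was -0.34, -0.78, 0.069 and -0.57 in repeats 1 to 4 at pH 6.4, and 0.25 to 0.30 at pH 6.9. For the 46 mitotic genes the same value was 0.023, 0.14, 0.17 and 0.21 at pH 6.4, -0.045, 0.067, 0.11 and 0.22 at pH 6.9, and -0.30, -0.23, -0.23 and -0.061 at pH 7.4. So pH 6.4 repeat 3 stood apart in the G1/S genes and not in the median of the mitotic genes. Within each medium the mitotic median was highest in repeat 4.

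**Figure D5:**
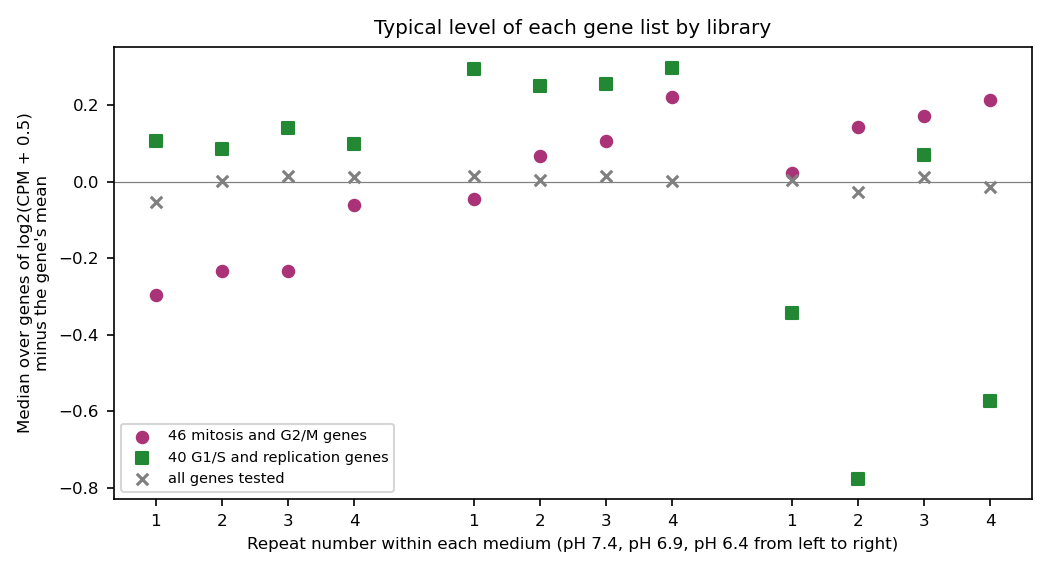
The median, over the genes of a list, of log2(CPM + 0.5) minus the gene's mean over 12 libraries, for the 46 mitotic genes (circles), 40 G1/S and replication genes (squares) and all genes tested (crosses), by library. Mitotic genes are below 0 in all 4 libraries at pH 7.4, while G1/S genes fall to between -0.78 and -0.34 in 3 of 4 libraries at pH 6.4.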

How the data were processed

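Whole-number counts of reads per gene, as deposited, were analysed for 12 libraries (3 media, 4 repeats each). Per the labels' protocols, the libraries came from a TruSeq stranded mRNA kit and were sequenced on a NextSeq instrument; per the submitters' processing notes, the authors used STAR, featureCounts and GRCh38.p13 (hg38). Versions, annotation release and strand setting of the counting: not given in the sources used here. Overlaps between genes, exon lengths and gene positions were taken from GENCODE 29 on GRCh38.

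Counts were tested with edgeR 4.0.16 (R 4.3.3, limma 3.58.1): genes were kept by filterByExpr (minimum count 10), scaled by TMM and fitted by the robust quasi-likelihood method with 1 term per medium over all 12 libraries. P-values were adjusted over all 17544 genes tested (Benjamini-Hochberg) and a gene was called at an adjusted p under 0.05. CPM were computed on TMM-scaled library sizes, and log2 values for figures with a pseudocount of 0.5 CPM. The procedure was tested on simulated data first. The 3 comparisons share libraries, so their values are set side by side only. Promoter windows came from RefSeq (GRCh38.p14).

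Repeat numbers were checked as pairs on deviations from the group means: the 12 pairs of libraries with the same number correlated at 0.296 to 0.799, so the fit with repeat as a block is given beside a result where it changed a call or moved a count by over 1.5 times. Pairs of different number correlated at 0.182 to 0.558 within repeats 1 and 2 or within 3 and 4, and at -0.726 to -0.157 across them. The labels do not say what a repeat number marks. 

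The members and lists were chosen with earlier results of these data known. Values of every library are given, per role, for the 2 members with the lowest p for pH 6.4 against pH 7.4, and for HMMR, which was called against the direction of most; SPC25, KIF11, KIF4A, CKS2 and UBE2S were added after their values were seen. Of each list of other genes, up to 3 called members with the largest log2 change and at least 5 CPM could be named. RBL2, NFYA and NFYB were added after their values were seen. Alternatives were DESeq2 1.42.0, limma-voom, RLE scaling, library size alone, no filter, a stricter filter (1 CPM), only the media compared, the block, repeats 1 and 2 or 3 and 4 alone and libraries left out.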

Additional observations from a re-analysis of the deposited data

Results flagged for a closer look

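In 5 of the 138 sets of 4 libraries (46 genes in 3 media) 1 library lay apart from the other 3, its gap to the nearest of them exceeding the critical share of the range in Dixon's test for 4 values. Chance flags about 1 in 20 such sets. At pH 6.4, TTK (the checkpoint kinase MPS1) read 93.8 CPM in repeat 2, against 80.7 to 82.1 CPM in the others, and CDC20 read 216 CPM in repeat 4, against 161.7 to 169 CPM. At pH 7.4, separase (ESPL1) read 54.1 CPM in repeat 4, against 46.9 to 47.6 CPM, NDC80 read 69.2 CPM in repeat 2, against 63.6 to 64.3 CPM, and TPX2 read 382 CPM in repeat 4, against 316 to 327 CPM. In all 5 the library apart was the highest of its set. Of these genes, TTK and TPX2 rose at pH 6.4 against pH 7.4.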

How the results depend on the processing

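For pH 6.9 against pH 7.4 the number of the 46 genes that rose depended most on the processing. It was 5 in the fit reported, 16 with DESeq2 and 26 with the repeat block (0.313%, 1.57% and 2.96% of all genes rose). With only the media compared it was 10, without a filter 9 and with library size only 2 (0.656%, 0.298% and 0.268% of all genes). It was 0 within repeats 1 and 2 (26 with an unadjusted p under 0.05), 0 within repeats 3 and 4 (19) and 0 without the 2 libraries with the fewest detected genes (24), all by edgeR. DESeq2 was not run on these subsets. Leaving out 1 library gave 0 to 11. For pH 6.4 against pH 7.4 the number that rose was 24 to 31 when 1 library was left out, 22 with library size only and 11 within repeats 3 and 4. The number that fell was 0 to 2 when 1 library was left out, 3 with the block, 2 within repeats 1 and 2, 0 within repeats 3 and 4, and 0 without the 2 libraries with the fewest detected genes. For pH 6.4 against pH 6.9 it was 3 to 8 that rose and 1 to 5 that fell when 1 library was left out, 15 that rose with the block, and 0 and 0 within repeats 3 and 4 (6 with an unadjusted p under 0.05). Fits chosen after seeing the data added the block to these subsets. With the block and without the 2 libraries with the fewest detected genes, 7 rose for pH 6.9 against pH 7.4 and 12 rose for pH 6.4 against pH 6.9. Of all genes, 0.529% and 13.4% rose there. With the block and without pH 6.4 repeat 3, 30 rose for pH 6.9 against pH 7.4 and 4 fell for pH 6.4 against pH 7.4. The shares over all genes were 5.11% and 21.9%. In the same fit 17 rose and 12 fell for pH 6.4 against pH 6.9 (19.6% and 18.7% of all genes). Leaving NUSAP1 and PRC1 out of the list changed none of the 3 pairs of counts (27 and 1, 5 and 0, 7 and 4 of 44).

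The block changed no direction, gained 8, 21 and 10 calls in the order pH 6.4 against pH 7.4, pH 6.9 against pH 7.4 and pH 6.4 against pH 6.9, and lost none. Scaling by library size alone moved the median log2 change of all genes to -0.08 at pH 6.4 against pH 7.4 and to -0.09 against pH 6.9, and the share of calls that were higher from 51.4% to 40.4% and from 51.9% to 38.2%. Of 138 log2 changes (46 genes, 3 comparisons), 18 changed sign under at least 1 of 23 alternatives, and none of the 18 was called. They were UBE2S in all 3 comparisons; CENPF and NUSAP1 at pH 6.4 and CDC20, FOXM1, PLK1 and HMMR at pH 6.9 against pH 7.4; and CCNA2, PLK1, BIRC5, BUB1B, MAD2L1, TTK, TPX2, ASPM and ECT2 between the acid media. ASPM at pH 6.4 against pH 6.9 was 0.041 on the log2 scale, and -0.034 with library size only. It was -0.028 to 0.097 when 1 library was left out, lowest without pH 6.4 repeat 3, and -0.034 without that library and with the block. HMMR at pH 6.9 against pH 7.4 was 0.13, and -0.069 within repeats 1 and 2. In each case the cause was not tested, and a subset also holds fewer libraries. Libraries of 21060767 counts or more give high counts for most of these genes, while NUSAP1 had the lowest level, 0.348 to 1.59 CPM, and UBE2S the widest error at pH 6.4 against pH 7.4 (SE 0.81, against 0.44 for NUSAP1).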

Other observations

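Of 8 condensin genes, which compact chromosomes, 2 rose at pH 6.9 against pH 7.4 (NCAPD3 by 0.43 and NCAPG2 by 0.36 log2 units), and the block called 5. From pH 6.9 to pH 6.4 none rose and 4 fell, and the block called 6 lower. SMC2, a core ATPase of both condensins, fell by 0.69 log2 units (SE 0.13, adjusted p = 0.0051) and NCAPG fell by 0.62 log2 units (SE 0.12, adjusted p = 0.0065) in that comparison. The mean level of SMC2 was 119 ± 30.3 CPM at pH 6.4, below 192 ± 7.60 CPM at pH 6.9 and 174 ± 5.73 CPM at pH 7.4 (each with SD over n = 4). At pH 6.4 against pH 7.4, 2 condensin genes rose and 2 fell (2 and 3 with the block). Of 8 cohesin genes, which hold sister chromatids together, 2 rose in that comparison, PDS5A by 0.31 and RAD21 by 0.28 log2 units, and the block called 3 higher and 2 lower. From pH 6.9 to pH 6.4 none rose and 2 fell, among them SMC1A, which fell by 0.38 log2 units, and the block called 1 higher and 3 lower. Over all genes, 15.6% rose and 14.7% fell at pH 6.4 against pH 7.4 (21.4% and 20.2% with the block). The shares from pH 6.9 to pH 6.4 were 8.83% and 8.2% (16.1% and 15% with the block). At pH 6.9 against pH 7.4 these shares were 0.313% and 0.41% (2.96% and 2.44% with the block).

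Of 15 regulators of the promoter elements searched above (the MuvB core, pocket proteins, E2F partners and NF-Y), 2 rose and 4 fell at pH 6.4 against pH 7.4, and the block called 2 and 6. Of all genes, 15.6% rose and 14.7% fell in that comparison (21.4% and 20.2% with the block). RBL1 (the pocket protein p107) fell by 0.60 log2 units (SE 0.18, adjusted p = 0.023), from 69.2 ± 2.59 to 45.6 ± 17.5 CPM (SD, n = 4). The pocket protein RBL2 (p130) went the other way, at 53.4 to 59.6 CPM at pH 7.4 and 67.9 to 88.7 at pH 6.4. CDKN1A, which encodes the CDK inhibitor p21, rose by 0.58 log2 units (SE 0.11, adjusted p = 0.0013), and NFYC, a subunit of the CCAAT-binding factor NF-Y, fell by 0.56 log2 units (SE 0.15, adjusted p = 0.01). The libraries of these media overlapped for the NF-Y subunits NFYA and NFYB. From pH 6.9 to pH 6.4, 1 rose and 4 fell, where 8.83% of all genes rose and 8.2% fell. The block called 2 and 8 (16.1% and 15% of all genes). RBL1 fell by 0.90 and the E2F partner TFDP1 by 0.49 log2 units in that comparison. At pH 6.9 against pH 7.4 none of the 15 was called by edgeR, with 2 at an unadjusted p under 0.05, and the block called 1 higher and 1 lower.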
